A study of Mus musculus with 6 samples.

Results

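The genes examined encode the subunits of the transcription factor NF-kB, its IkB inhibitors and the feedback regulator A20. They were taken by name, as the 10 genes Nfkb1, Nfkb2, Rel, Rela, Relb, Nfkbia, Nfkbib, Nfkbie, Nfkbiz and Tnfaip3, and every probe set whose annotation names exactly 1 of them was used. That gave 19 probe sets for 9 of the genes, among 34945 probe sets for 18193 genes. Nfkb1 was named alone by no probe set in the annotation used and was not analysed here. Expression was measured in haematopoietic stem cells (HSC), the rare marrow cells that renew themselves and feed every blood lineage. Marrow cells positive for CD150 and negative for CD48 were taken from the KSL fraction, that is Kit+ Sca-1+ cells without lineage markers. They came from 3 untreated samples of Lig4mut mice and 3 of wild-type littermates (WT, Lig4+/+), all 6 to 8 weeks old and bred by crossing Lig4mut/+ carriers with each other. Lig4 encodes DNA ligase IV, which joins broken DNA ends, and the series asks what this enzyme means for the upkeep of HSC. The labels state neither the nature of the mutation nor the number of mice behind a sample. The p-values therefore measure the spread between these samples.

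NF-kB is a dimer of Rel-family proteins that waits in the cytoplasm bound to an IkB protein. In the canonical route, signals from tumour necrosis factor, interleukin-1 or Toll-like receptors lead to phosphorylation and breakdown of IkB, and dimers of RelA or c-Rel with p50 enter the nucleus. In the non-canonical route, ligands such as BAFF and RANKL lead to processing of p100, the product of Nfkb2, to p52, which pairs with RelB. NF-kB in turn drives transcription of several of its own inhibitors, Nfkbia and Tnfaip3 among them, which closes a negative feedback loop. In blood stem cells the pathway is known for its part in survival and in the response to inflammation.

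A probe set is a group of short array probes summarised as 1 level on the log2 scale. By the array maker's naming, an ending of _a_at marks a set that reads several transcripts of 1 gene, _s_at a set shared by several transcripts, and _x_at a set with probes close to other sequences. Levels are quantile normalized log2 values, and differences are Lig4mut minus WT on that scale from limma, with a standard error (SE) and a p adjusted over all 34945 probe sets. Deposited array medians lay at 5.97 to 6.05 in Lig4mut and 6.29 to 6.34 in WT, before that step. Lig4 itself, with 1 probe set, had levels of 4.97, 3.16 and 3.10 in Lig4mut HSC and 7.53, 6.66 and 7.63 in WT HSC (limma, adjusted p = 0.129). In bulk RNA a smaller number of cells that express a gene and less RNA per cell cannot be told apart.

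Most of the NF-kB genes had lower values in Lig4mut HSC, none past the threshold, while Nfkb2 and Nfkbib had higher values in both of their probe sets. The smaller Nfkbib difference, 0.07, was below the median of all probe sets and was -0.04 in the values as deposited. Of the 19 probe sets 13 had lower and 6 higher values, or 68.4% lower, against 42.4% lower of all probe sets tested. Nfkbia alone gave 5 of the 13. The median difference of the 19 was -0.43, against 0.08 over all probe sets. That background depends on the processing. As deposited the medians were -0.42 for the members and -0.04 over all probe sets. Without probe sets under the 40th percentile of mean level they were -0.46 and -0.01. No member passed an adjusted p of 0.05 (limma, smallest adjusted p = 0.139), a threshold that 0.00286% of all probe sets passed. At an unadjusted p under 0.05 there was 1 member, on the higher side, against a background of 17.5%, made up of 12.2% higher and 5.3% lower. The Lig4mut and WT arrays did not overlap for that same probe set alone, so 5.26% of the members were separated, against 23.8% of all probe sets (16.6% higher and 7.12% lower).

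**Figure D1:**
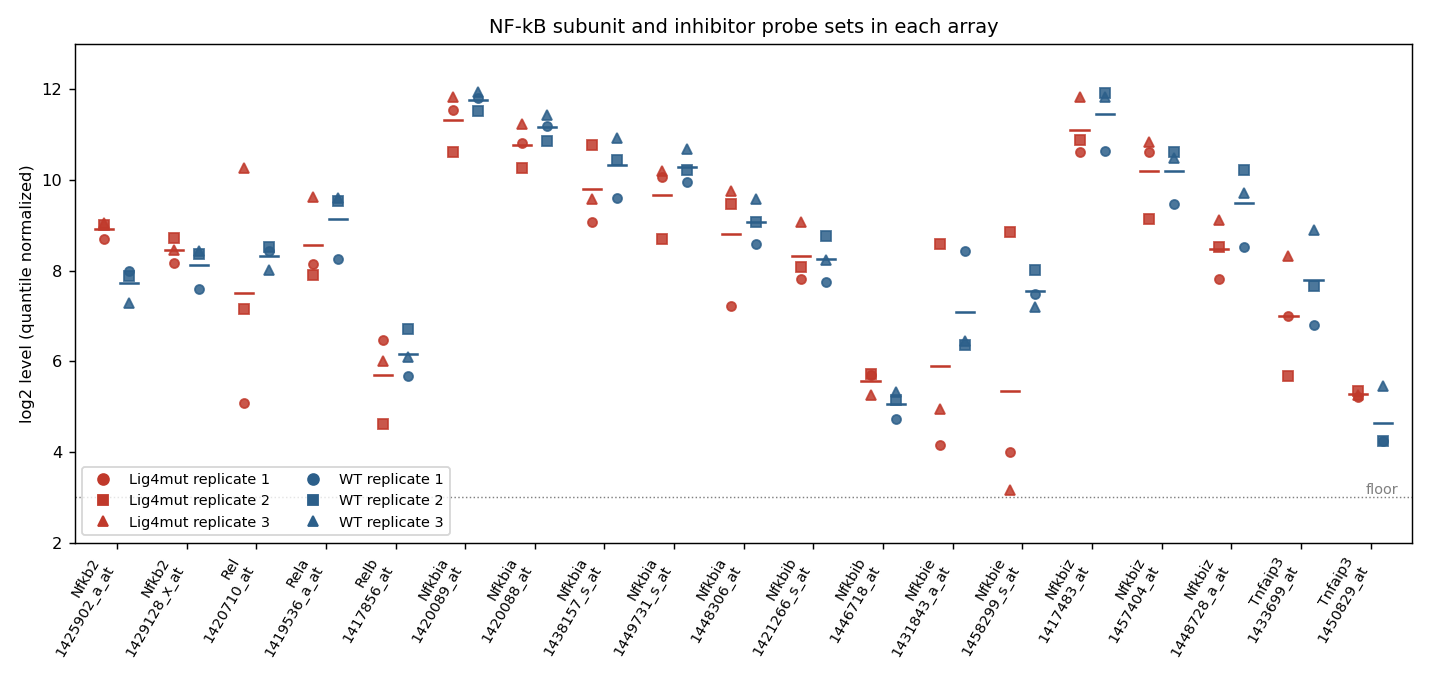
Log2 level (y axis, quantile normalized) of the 19 member probe sets (x axis), with Lig4mut arrays in red at the left and WT arrays in blue at the right of each pair, 1 point per array, shaped by replicate, with a bar at the mean and a dotted line at the floor of 3. The first Nfkb2 probe set has its 3 Lig4mut points above its WT points, and the Rel and Nfkbie points of Lig4mut spread widest.

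The members varied more between arrays of 1 genotype than probe sets in general. They also had a higher median level, 8.32 against 6.56 over all probe sets, and spread was not compared at matched level. The median SD of a member was 0.829 between the Lig4mut arrays and 0.504 between the WT arrays (n = 3 each), against 0.481 in Lig4mut and 0.31 in WT over all probe sets. In 13 of the 19 the SD was larger in Lig4mut than in WT, a share of 68.4%, against 68.2% of all probe sets. The wider spread in Lig4mut was thus found at the same rate across the array.

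Nfkb2 encodes p100, the precursor of the p52 subunit, which also holds Rel proteins in the cytoplasm like an IkB. Its probe set 1425902_a_at had log2 levels of 8.70, 9.01 and 9.05 in Lig4mut HSC, against 7.99, 7.88 and 7.28 in WT HSC. All 3 Lig4mut arrays lay above all 3 WT arrays. The means were 8.92 ± 0.19 in Lig4mut and 7.72 ± 0.38 in WT (SD, n = 3 each), a difference of 1.20 ± 0.24 SE, or 2.30-fold, which missed the threshold (limma, adjusted p = 0.139). Its 95% interval was 0.59 to 1.81, and relative to the median of all probe sets the difference was 1.12. It stayed between 0.98 and 1.34 when any 1 of the 6 arrays was left out.

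The second Nfkb2 probe set, 1429128_x_at, showed a smaller difference. Levels were 8.16, 8.71 and 8.46 in Lig4mut HSC and 7.60, 8.37 and 8.43 in WT HSC. Here the genotypes overlapped, with WT replicate 1 apart below the other arrays, and the difference was 0.31 ± 0.29 SE (limma, adjusted p = 0.637). It was 0.20 in the values as deposited and 0.52 with arrays centred on their medians, and 0.04 to 0.46 with 1 array left out, lowest without WT replicate 1. The mean of both Nfkb2 probe sets differed by 0.76 (limma, adjusted p = 0.12).

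Rel encodes c-Rel, a subunit with a transactivation domain that is best known in lymphocytes. Its single probe set had levels of 5.08, 7.15 and 10.25 in Lig4mut HSC and 8.43, 8.52 and 8.01 in WT HSC. The WT arrays lay within a narrow band, while the Lig4mut arrays lay on both sides of it. The SD was 2.60 in Lig4mut and 0.27 in WT (n = 3 each). The difference of -0.83 ± 1.35 SE had a 95% interval of -4.29 to 2.64 (limma, adjusted p = 0.802), and it was 0.38 without Lig4mut replicate 1 and -2.21 without Lig4mut replicate 3.

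Rela encodes p65, the main activating subunit of the canonical route. It had levels of 8.15, 7.90 and 9.62 in Lig4mut HSC and 8.26, 9.53 and 9.60 in WT HSC, so that 1 array of the WT group lay among the lower values and 1 of the Lig4mut group among the higher. The difference was -0.57 ± 0.62 SE (95% interval -2.17 to 1.03). Relb encodes RelB, the partner of p52 in the non-canonical route. It had levels of 6.48, 4.62 and 6.00 in Lig4mut HSC and 5.68, 6.71 and 6.08 in WT HSC, and differed by -0.46 ± 0.57 SE (95% interval -1.92 to 1.01). With 1 array left out the difference of Rela was -1.10 to -0.24, smallest without Lig4mut replicate 2. That of Relb was -0.84 without Lig4mut replicate 1, -0.18 without WT replicate 2 and 0.08 without Lig4mut replicate 2, its lowest array. Neither passed the threshold (limma, adjusted p = 0.688 for Rela and 0.728 for Relb).

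The promoter sequences below are shown for the members that carry a kB motif, the sequence NF-kB dimers bind, just before the start of transcription. RefSeq windows on GRCm38.p6 were at hand for 7 of the 10 members. A pair of motifs was searched on both strands of the 250 bases before each start. The pattern GGGNNNNNCC was found in 45.8% of 32851 windows, and the kB consensus, a stricter form whose every match also fits that pattern, in 3.9%. Of the members' 10 windows 9 held GGGNNNNNCC and 7 the kB consensus, which came to 5 of 7 genes. Each line gives the 130 bases before the first start listed, 5′ to 3′ along the gene's strand, with matches to the kB consensus in capitals.
Nfkb2: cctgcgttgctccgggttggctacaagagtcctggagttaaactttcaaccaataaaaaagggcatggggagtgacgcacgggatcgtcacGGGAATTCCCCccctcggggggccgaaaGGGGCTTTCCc
Rel: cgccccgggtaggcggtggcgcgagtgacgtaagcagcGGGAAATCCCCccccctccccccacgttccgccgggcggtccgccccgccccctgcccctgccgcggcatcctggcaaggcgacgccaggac
Nfkbia: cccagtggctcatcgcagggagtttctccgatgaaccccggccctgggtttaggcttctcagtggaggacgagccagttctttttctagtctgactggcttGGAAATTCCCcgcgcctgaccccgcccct
Nfkbie: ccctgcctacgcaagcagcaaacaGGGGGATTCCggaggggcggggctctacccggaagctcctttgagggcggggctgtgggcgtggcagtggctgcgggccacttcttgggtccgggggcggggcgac
Tnfaip3: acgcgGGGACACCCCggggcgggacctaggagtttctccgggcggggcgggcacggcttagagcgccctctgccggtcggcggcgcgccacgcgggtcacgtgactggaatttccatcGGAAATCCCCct
The windows are chr19:46304607-46304736 (+ strand), chr11:23770970-23771099 (- strand), chr12:55492648-55492777 (- strand), chr17:45555570-45555699 (+ strand) and chr10:19015411-19015540 (- strand). In Nfkb2 and Rel a pair of matches 1 base apart forms 1 longer run of capitals. Nfkb2 has a second run that starts 11 bases before the start of transcription, and in Nfkbia the match begins 29 bases before it. The Rela and Nfkbib windows held no match to the kB consensus. A match describes the letters only, and these arrays did not measure binding. The 5 genes did not share 1 direction, since Nfkb2 had higher values, Rel, Nfkbia and Nfkbie lower ones, and Tnfaip3 values on both sides.

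Nfkbia encodes IkB-alpha, the inhibitor that NF-kB induces most directly and that ends the canonical response. All 5 of its probe sets had lower values in Lig4mut HSC, by 0.26 to 0.63, and none was separated between the genotypes. Its 5 probe sets read the same transcript or parts of it and are not independent. Probe set 1420089_at had levels of 11.54, 10.61 and 11.83 in Lig4mut HSC and 11.81, 11.52 and 11.94 in WT HSC. Lig4mut replicate 2 lay below every other array, and Lig4mut replicates 1 and 3 lay within the WT range. The difference was -0.43 ± 0.36 SE (95% interval -1.35 to 0.49, limma, adjusted p = 0.592). It came to -0.10 with arrays centred on their medians, and leaving out Lig4mut replicate 2 gave -0.08 and replicate 3 gave -0.68.

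The Nfkbia probe sets disagreed on which Lig4mut array was low. Probe set 1449731_s_at had 10.07, 8.70 and 10.20 in Lig4mut HSC and 9.95, 10.22 and 10.69 in WT HSC, again with replicate 2 lowest. So did 1420088_at, with 10.81, 10.27 and 11.23 in Lig4mut HSC and 11.19, 10.87 and 11.43 in WT HSC. By contrast 1438157_s_at had 9.06, 10.77 and 9.59 in Lig4mut HSC and 9.60, 10.44 and 10.93 in WT HSC, with replicate 2 the highest Lig4mut array. Without Lig4mut replicate 2 the differences of these 3 were -0.15, -0.14 and -1.00, and with arrays centred on their medians -0.31, -0.05 and -0.18. Probe set 1448306_at had 7.22, 9.46 and 9.76 in Lig4mut HSC and 8.59, 9.07 and 9.58 in WT HSC. There Lig4mut replicate 1 was far below the rest, and without it the difference was 0.53. That probe set was also at 0.01 with arrays centred on their medians.

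Nfkbib encodes IkB-beta, a second cytoplasmic inhibitor. Its probe set 1421266_s_at had levels of 7.82, 8.07 and 9.07 in Lig4mut HSC and 7.76, 8.76 and 8.24 in WT HSC, fully overlapping, with a difference of 0.07 ± 0.44 SE that was -0.04 in the values as deposited. The other probe set, 1446718_at, had 5.70, 5.71 and 5.26 in Lig4mut HSC and 4.72, 5.14 and 5.32 in WT HSC, with 2 Lig4mut arrays above all WT arrays. It differed by 0.50 ± 0.23 SE (95% interval -0.08 to 1.08, limma, adjusted p = 0.343), but by 0.20 in the values as deposited, 0.30 with cyclic loess and 0.33 without WT replicate 1.

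Nfkbie encodes IkB-epsilon, an inhibitor that acts on RelA and c-Rel dimers, and its values lay far apart between the Lig4mut arrays. Probe set 1458299_s_at had levels of 3.99, 8.85 and 3.17 in Lig4mut HSC, against 7.47, 8.01 and 7.19 in WT HSC. Probe set 1431843_a_at had 4.15, 8.59 and 4.95 in Lig4mut HSC, against 8.43, 6.37 and 6.44 in WT HSC. In both, Lig4mut replicates 1 and 3 lay below all 3 WT arrays, near the floor of 3 in the case of 1458299_s_at, and Lig4mut replicate 2 lay above them all.

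With all 6 arrays the Nfkbie probe sets differed by -2.22 ± 1.60 SE and -1.18 ± 1.36 SE, with 95% intervals of -6.32 to 1.88 and -4.67 to 2.31 (limma, adjusted p = 0.534 and 0.707). Without Lig4mut replicate 2 the differences were -3.98 and -2.53 (limma, adjusted p = 0.15 and 0.248), and without Lig4mut replicate 1 they were -1.55 and -0.31. Without Lig4mut replicate 3 they were -1.14 and -0.71, and without WT replicate 1 the second was -0.51. Neither passed the threshold in any of these fits. Lig4mut replicate 2 was also the highest array for a list of granulocyte genes. This was not particular to granulocyte genes. The macrophage and dendritic cell, B cell, T and NK cell, megakaryocyte, and endothelial and stromal lists described below were also highest in that array. The erythroid list was not. The mean level of 15 granulocyte genes was 5.80, 10.40 and 6.45 in Lig4mut replicates 1, 2 and 3, against 7.89, 6.81 and 7.15 in the WT replicates. All 15 were higher in Lig4mut replicate 2 than in the other Lig4mut arrays. The part of granulocyte transcripts, or of those of the other lists, in the Nfkbie values was not tested.

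**Figure D2:**
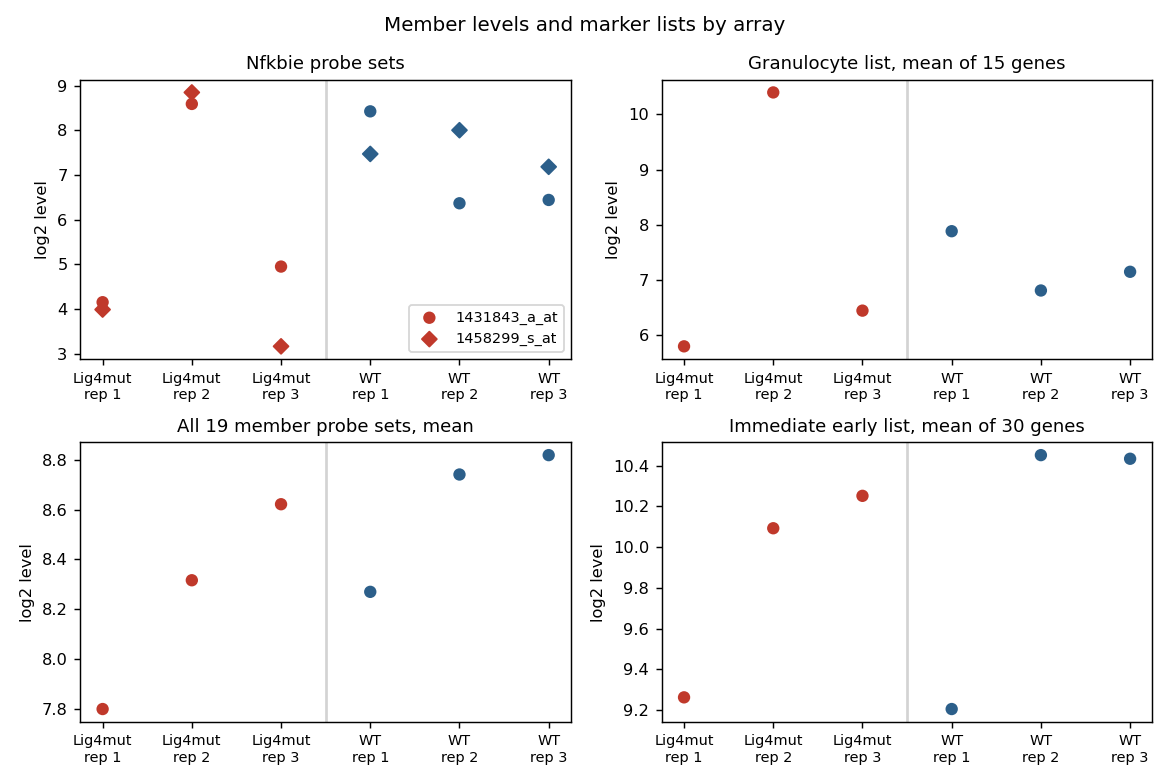
Log2 levels (y axes) in each array (x axes), Lig4mut in red at the left and WT in blue at the right. The panels show the 2 Nfkbie probe sets, the mean of 15 granulocyte genes, the mean of the 19 member probe sets and the mean of 30 immediate early genes. Lig4mut replicate 2 is the highest array for both Nfkbie probe sets and for the granulocyte genes, and replicate 1 of each genotype is the lowest array of its genotype for the members and the immediate early genes.

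Nfkbiz encodes IkB-zeta, an atypical member of the IkB family that sits in the nucleus and helps transcription of a subset of NF-kB targets. Its probe set 1417483_at had levels of 10.62, 10.88 and 11.84 in Lig4mut HSC and 10.64, 11.93 and 11.83 in WT HSC, with WT replicate 1 at the level of the lower Lig4mut arrays. The difference was -0.35 ± 0.50 SE, or -0.77 to -0.11 with 1 array left out and -0.03 with arrays centred on their medians. Probe set 1448728_a_at had 7.82, 8.53 and 9.11 in Lig4mut HSC and 8.52, 10.22 and 9.72 in WT HSC, a difference of -1.00 ± 0.57 SE (95% interval -2.46 to 0.46, limma, adjusted p = 0.435). It was -1.48 without WT replicate 1 (limma, adjusted p = 0.361), -0.67 without Lig4mut replicate 1 and -0.63 without WT replicate 2. The third, 1457404_at, had 10.62, 9.13 and 10.84 in Lig4mut HSC and 9.46, 10.61 and 10.49 in WT HSC, and differed by 0.01 ± 0.58 SE.

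Tnfaip3 encodes A20, which edits ubiquitin chains on signalling adaptors and so shuts the pathway down upstream of IkB. Its 2 probe sets went in opposite directions. Probe set 1433699_at had levels of 6.99, 5.68 and 8.32 in Lig4mut HSC and 6.79, 7.65 and 8.90 in WT HSC, widely spread and overlapping, with a difference of -0.78 ± 0.87 SE that was -0.13 without Lig4mut replicate 2, -0.22 without WT replicate 3 and -1.44 without Lig4mut replicate 3. The other probe set, 1450829_at, had 5.21, 5.35 and 5.25 in Lig4mut HSC and 4.24, 4.25 and 5.45 in WT HSC. It differed by 0.63 ± 0.37 SE (limma, adjusted p = 0.454), by 0.35 in the values as deposited, by 0.42 and 0.43 without WT replicates 1 and 2, and by 1.03 without WT replicate 3 (limma, adjusted p = 0.285).

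**Figure D3:**
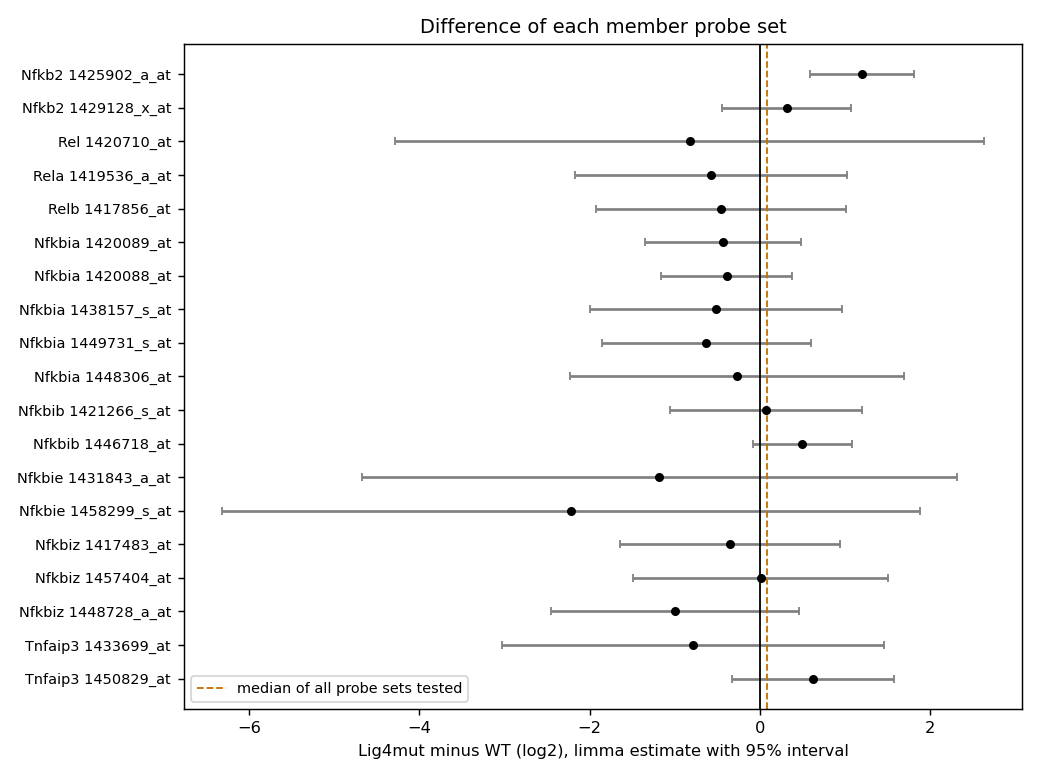
Difference Lig4mut minus WT (x axis, log2) of each member probe set (rows) as the limma estimate with its 95% interval, with a solid line at 0 and a dashed line at 0.08, the median of all probe sets tested. The interval of Nfkb2 1425902_a_at, 0.59 to 1.81, is the one that lies to 1 side of 0, and those of Rel and Nfkbie are the widest.

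Seen by array, the members tended to be low in replicate 1 of both genotypes. The mean over the 19 probe sets was 7.80, 8.32 and 8.62 in Lig4mut replicates 1, 2 and 3 and 8.27, 8.74 and 8.82 in WT replicates 1, 2 and 3. Lig4mut replicate 1 was the lowest Lig4mut array for 10 of the 19 probe sets and Lig4mut replicate 2 for 7. WT replicate 1 was the lowest WT array for 13. These counts were not made over all probe sets, and probe sets of the same gene are not independent. A list of 30 immediate early genes, which respond within minutes to the handling of cells and overlap with NF-kB targets, had mean levels of 9.26, 10.09 and 10.25 in the Lig4mut replicates and 9.20, 10.45 and 10.43 in the WT replicates. Both lists were therefore lowest in replicate 1 within each genotype, and the part of handling in the member values was not tested. The labels do not say that a replicate number marks a shared litter or day.

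Markers of the sort were present and those of other cells varied between arrays. The mean of 11 stem cell genes, among them Slamf1, Kit and Mecom, was 9.41 to 10.33 in Lig4mut and 10.35 to 10.51 in WT, lowest in Lig4mut replicate 2, with 3 genes higher and 8 lower. Cd48, which the sort selects against, had 5.24, 5.25 and 5.95 in Lig4mut HSC and 7.31, 6.22 and 5.04 in WT HSC. Among all genes 61.5% had higher values, or 51.4% in the values as deposited. The mean of 16 macrophage and dendritic cell genes was 7.00 to 7.66 in Lig4mut and 6.39 to 6.79 in WT, with 14 of the 16 higher, or 13 as deposited. For 13 B cell genes it was 5.94 to 6.37 in Lig4mut and 5.51 to 5.68 in WT, with 13 higher, or 11 as deposited. The 9 T and NK cell genes had means of 5.22 to 6.05 in Lig4mut and 4.82 to 5.34 in WT, with 9 higher, or 7 as deposited. The 11 endothelial and stromal genes had 7.31 to 8.50 in Lig4mut and 6.36 to 8.03 in WT, with 10 higher, or 9 as deposited. The 8 megakaryocyte genes had 7.86 to 8.66 in Lig4mut and 7.74 to 8.45 in WT, with 6 higher, and 6 as deposited. The 9 erythroid genes had 6.71 to 6.87 in Lig4mut and 6.76 to 6.93 in WT, with 5 higher, or 2 as deposited. The part of other cells in the difference of Nfkb2, which lymphoid and myeloid cells also express, was not tested. Of the 94 marker genes measured, none was at the floor on all 6 arrays. Only 5.59% to 6.54% of probe sets were at the floor on an array, so a level above it does not show that a gene was expressed.

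The other genes of the pathway were described from 5 lists, each gene by its probe set of highest mean level. None of their members passed the threshold over 18193 genes, which 0.011% of all genes passed. The background at an unadjusted p under 0.05 was 15.6% of all genes on the higher side and 4.18% on the lower, and the median difference of all genes was 0.18. With arrays centred on their medians the splits turned to 8 of 10 ligands, 11 of 14 receptors, 12 of 19 kinases and adaptors, 11 of 16 other inhibitors and 19 of 29 targets higher, against 72.9% of all genes. As deposited 4 of the 10 ligands were higher. The first list holds ligands, of which 6 of 10 had higher and 4 lower values (median 0.05), with 3 higher at an unadjusted p under 0.05. Tnfsf13b, which encodes the non-canonical ligand BAFF, had levels of 7.26, 8.20 and 7.97 in Lig4mut HSC and 6.59, 6.56 and 6.83 in WT HSC, without overlap. It differed by 1.15 ± 0.28 SE (limma, adjusted p = 0.149), with 0.11 in the lowest of its 3 probe sets.

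Tnfsf11, which encodes RANKL, another ligand of the non-canonical route, had levels of 6.02, 4.61 and 5.84 in Lig4mut HSC and 4.03, 4.63 and 4.23 in WT HSC. It differed by 1.20 ± 0.43 SE, with Lig4mut replicate 2 among the WT arrays (limma, adjusted p = 0.225). Il1b, the cytokine interleukin-1 beta, had 6.65, 6.73 and 6.90 in Lig4mut HSC and 5.74, 6.09 and 6.51 in WT HSC, a difference of 0.65 ± 0.23 SE that was 0.33 in the values as deposited. Tnf, the prototype inducer of the canonical route, differed by -0.30 ± 0.32 SE.

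Among the receptors 10 of 14 had higher and 4 lower values, with a median of 0.21 and 1 gene higher at an unadjusted p under 0.05. That gene was Tlr9, the endosomal receptor for DNA, with 6.92, 6.43 and 7.17 in Lig4mut HSC and 6.10, 5.92 and 6.21 in WT HSC. Its difference of 0.76 ± 0.23 SE (limma, adjusted p = 0.183) was 0.46 in the values as deposited. The interleukin-1 receptor gene Il1r1 had 8.08, 9.58 and 5.61 in Lig4mut HSC and 6.47, 5.23 and 6.41 in WT HSC, with 1 Lig4mut array inside the WT range. Tnfrsf13c, which encodes the BAFF receptor, had 8.62, 6.80 and 9.90 in Lig4mut HSC and 9.64, 9.83 and 9.30 in WT HSC, so its values overlapped. Tnfrsf4, which encodes the T cell costimulator OX40, differed by 0.65 ± 0.45 SE.

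Kinases and adaptors were measured for 19 of 24 listed genes, 9 with higher and 10 with lower values (median -0.21), 1 in each direction at an unadjusted p under 0.05. The 5 others were not analysed here. Tradd, the adaptor of TNF receptor 1, had 9.86, 9.61 and 9.22 in Lig4mut HSC and 8.72, 9.06 and 8.50 in WT HSC, without overlap. Its difference of 0.80 ± 0.24 SE (limma, adjusted p = 0.183) was -0.26 in the lowest of its 3 probe sets. Birc3, which encodes the ubiquitin ligase cIAP2, a brake on the non-canonical route and itself an NF-kB target, had 7.81, 6.62 and 7.55 in Lig4mut HSC and 8.52, 9.25 and 8.09 in WT HSC. All 3 Lig4mut arrays lay below the WT arrays, with a difference of -1.29 ± 0.45 SE (limma, adjusted p = 0.213) and of -0.30 in its other probe set. Myd88, the adaptor of Toll-like and interleukin-1 receptors, differed by 0.56 ± 0.29 SE. The ubiquitin ligase gene Traf6 differed by 1.12 ± 0.62 SE, with its 5 probe sets between -2.86 and 1.12.

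Of 16 other inhibitors and deubiquitinases 8 had higher and 8 lower values (median 0.03), none at an unadjusted p under 0.05 by limma. Bcl3, an atypical nuclear IkB that binds p50 and p52 dimers, had 10.12, 7.89 and 9.77 in Lig4mut HSC and 7.09, 8.59 and 7.71 in WT HSC. Lig4mut replicates 1 and 3 lay above the WT arrays and replicate 2 among them, and the difference was 1.47 ± 0.72 SE (limma, adjusted p = 0.339). Nfkbil1, an IkB-like gene, had 9.07, 8.17 and 7.74 in Lig4mut HSC and 7.11, 7.65 and 7.67 in WT HSC, without overlap but with a gap smaller than the spread in either genotype. Btrc, which encodes the F-box protein that recognises phosphorylated IkB, differed by -0.57 ± 0.31 SE, and Commd1, which promotes turnover of nuclear RelA, by 0.29 ± 0.20 SE. The last 2 each had at least 1 probe set in the other direction.

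Of 29 NF-kB target genes 12 had higher and 16 lower values (median -0.07), and Il6 was at the floor on all 6 arrays, with 2 lower and none higher at an unadjusted p under 0.05. Both were neutrophil chemokines. Cxcl1 had 5.94, 5.59 and 5.94 in Lig4mut HSC, against 7.90, 7.02 and 7.92 in WT HSC, a difference of -1.79 ± 0.30 SE, with the smallest of its 3 probe sets at -0.07. Cxcl2 had 3.85, 3.86 and 3.81 in Lig4mut HSC, close to the floor, against 5.32, 5.73 and 4.69 in WT HSC, a difference of -1.40 ± 0.29 SE. In both the Lig4mut arrays lay close together and below all WT arrays, without passing the threshold (limma, adjusted p = 0.13 and 0.138). Ccl2, a monocyte chemokine, had higher values instead, with 6.61, 8.04 and 6.86 in Lig4mut HSC and 6.19, 6.24 and 6.11 in WT HSC (0.99 ± 0.40 SE, limma, adjusted p = 0.265). Stat5a, a transcription factor of cytokine signalling, differed by -0.87 ± 0.35 SE, or by -0.53 with arrays centred on their medians.

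**Figure D4:**
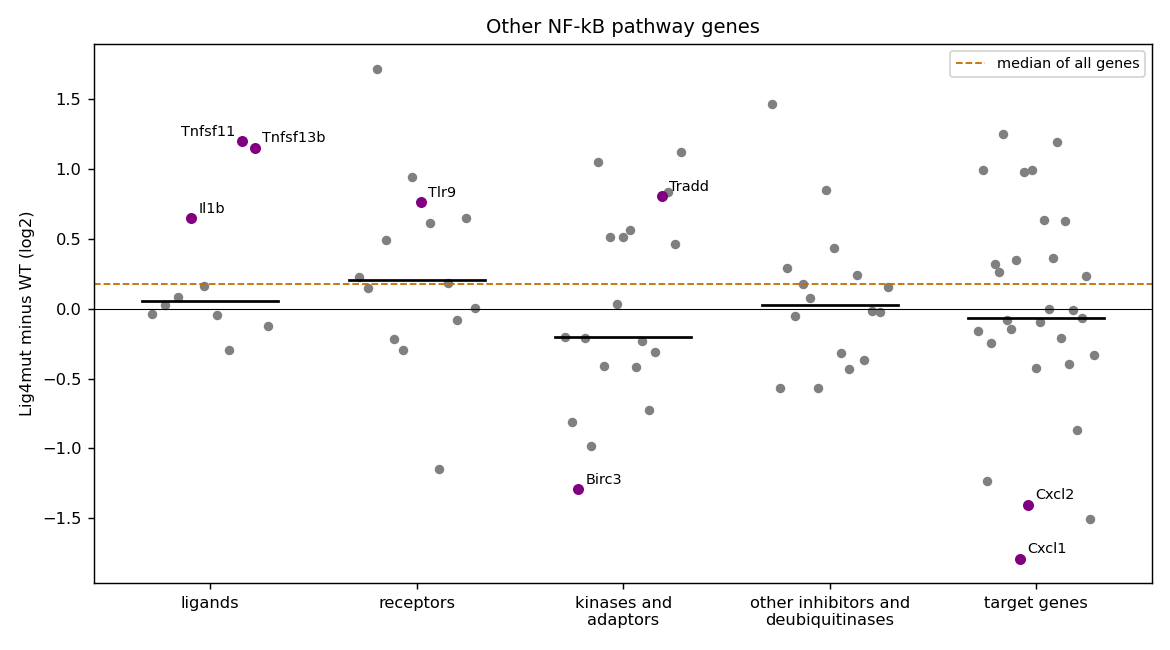
Difference Lig4mut minus WT (y axis, log2) of each measured gene in the 5 pathway lists (x axis), 1 point per gene, with a bar at the list's median, a dashed line at 0.18, the median of all genes, and the genes at an unadjusted p under 0.05 in purple with their names. Cxcl1, Cxcl2 and Birc3 lie lowest among the named genes and Tnfsf11 and Tnfsf13b highest.

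Nfkbia was represented here by 1420089_at, its probe set of highest mean, and the nearest profiles over the 6 arrays were Ttf2, Papola, Ikzf1, Clcn5 and Ist1. Its other probe sets were not used, and 1438157_s_at had Lig4mut replicate 2 as its highest Lig4mut array. Likeness was the root mean square difference of log2 values after each gene was centred on its own mean, over 17180 genes with no array at the floor. It was 0.0823 for Ttf2 and 0.123 for Ist1, the nearest and the farthest of the 5, against a median of 0.688. All 5 were low in Lig4mut replicate 2, as for the transcription factor gene Ikzf1, with 10.26, 9.41 and 10.51 in Lig4mut HSC and 10.47, 10.54 and 10.71 in WT HSC. Of the members, Relb was nearest to that Nfkbia probe set by this measure at 0.493, and Nfkbie farthest at 1.87. With so many genes and 6 arrays near matches are plentiful, so this describes the arrays and carries no test.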

How the data were processed

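The values are log2 expression levels per probe set, which the authors deposited after RMA (version not stated; named in the submitters' processing notes). RNA was extracted with Trizol, per the labels' protocols. Every array has its minimum at exactly 3, taken as a floor. Names came from GEO's annotation of the platform, with symbols updated by gene identifier to RefSeq's table for GRCm38.p6. Of 45101 probe sets, 34945 name 1 gene and were tested, and 64 controls, 932 with several genes and 9160 with none were left out. Arrays were quantile normalized, since the deposited distributions differ between arrays. The test was limma 3.58.1 (R 4.3.3, lmFit, eBayes, two-sided, Benjamini-Hochberg over all probe sets, threshold 0.05), and lists by gene with the probe set of highest mean. An exact permutation test of 3 arrays against 3 cannot go below p = 0.1 and was not run. Precision is limited by the number of arrays. The fit was checked on simulated data. Named are all members, up to 4 genes of the smallest p in each pathway list and the 5 profiles nearest Nfkbia 1420089_at. Members and lists were chosen with earlier results of these data known. Over all probe sets same-numbered arrays deviated together with r = 0.0426, 0.00690 and -0.0312, and the main fit used no pairing. A correlation over all probe sets cannot show whether same-numbered arrays share something that moves only some genes.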

Additional observations from a re-analysis of the deposited data

How the results depend on the processing

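No member passed the threshold by limma under the 15 alternatives, which tested 19 probe sets, or 17 without dim probe sets and 9 genes where genes were tested, while 1 to 3 were at an unadjusted p under 0.05. The count of all probe sets past the threshold was 1. It was 2 in the values as deposited and 2 with each gene by its probe set of highest mean, with 4417 and 3590 at an unadjusted p under 0.05. It was 0 with probe sets averaged per gene, without dim probe sets, with array weights and without any 1 array, with 2605 to 7080 at an unadjusted p under 0.05. With the replicate number as a block it was also 0 (5082 at an unadjusted p under 0.05), and 2 members in place of 1 were at that level, Nfkb2 1425902_a_at and Nfkbiz 1448728_a_at, while no call changed. Without 1 array, 1 to 3 members were at an unadjusted p under 0.05 and the genotypes did not overlap for 1 to 5, against 30.2% to 37.8% of all probe sets. The members' median of -0.43 ranged from -0.68 to -0.10, and relative to the median of all probe sets from -0.77 to -0.23.

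Of probe sets at an unadjusted p under 0.05, 69.7% were higher, against 42.2% in the values as deposited, 78.9% with centring on array medians, where the median of all was 0.28, and 52% with cyclic loess. Nfkb2 1425902_a_at was at 0.98 to 1.41 over the alternatives that kept the probe set apart (limma, adjusted p = 0.138 to 0.365). Averaged with the other Nfkb2 probe set it was at 0.76 (limma, adjusted p = 0.12). Of the 19 differences 14 kept their sign in the 12 to 15 alternatives each was run in. Rel was at 0.38 without Lig4mut replicate 1 (range -2.21 to 0.38 over arrays left out) and Relb at 0.0813 without Lig4mut replicate 2 (range -0.84 to 0.0813). Nfkbia 1448306_at was at 0.53 without Lig4mut replicate 1 (range from -0.74) and at 0.0113 with median centring. Nfkbib 1421266_s_at was at -0.30 without Lig4mut replicate 3, -0.18 without WT replicate 1 and -0.0356 as deposited (range up to 0.33). Nfkbiz 1457404_at was at -0.20 and -0.31 without Lig4mut replicates 1 and 3 and at -0.35 without WT replicate 1 (range up to 0.54). The fits that leave out an array show which array a sign depends on, and the cause of the sign changes was not tested. Spots near the floor of 3 limit what Nfkbie and Cxcl2 can show.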

Other observations

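The array pattern of Nfkbie, with Lig4mut replicates 1 and 3 below all WT arrays and Lig4mut replicate 2 above them, was looked for in the granulocyte list after its values were seen. It was found in 4 of the 15 genes, Camp, Mpo, S100a8 and S100a9, a share of 26.7%, against 2.07% of 18193 genes. Several other marker lists were also highest in Lig4mut replicate 2. The granulocyte list was already known to be highest there, and its genes rose together. They are therefore not independent, the shares describe the arrays only, and no other list was searched for the pattern. S100a9, a calcium-binding protein gene of neutrophils, had log2 levels of 6.00, 13.14 and 6.49 in Lig4mut HSC and 11.26, 11.69 and 11.35 in WT HSC. S100a8, its partner, had 7.00, 12.55 and 8.54 in Lig4mut HSC and 10.76, 11.10 and 10.15 in WT HSC. Chil3 and Ngp were also below all WT arrays in Lig4mut replicates 1 and 3, which makes 6 of the 15, and 13 of the 15 were above all WT arrays in Lig4mut replicate 2. Prg2, of eosinophils, was high in that array without the low values, with 5.88, 12.40 and 6.21 in Lig4mut HSC and 5.34, 4.70 and 6.11 in WT HSC. The relation of Nfkbie to these genes was not tested.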
